A study of Mus musculus with 5 samples.

Results

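Neutrophils of 4T1 mammary tumors that held no UMI of Ngp or Camp were examined in droplet-based single-cell libraries, in which a unique molecular identifier (UMI) tags each counted RNA molecule. Ngp (neutrophilic granule protein) and Camp (cathelicidin) are granule genes of immature neutrophils, and neutrophils without them are usually the later stage. Members were barcodes with at least 200 detected genes, UMIs of at least 2 of the 6 genes Csf3r, Cxcr2, Retnlg, G0s2, Clec4d and Mmp9, at least 5 UMIs of S100a8 and S100a9 together, no UMI of Cd3e (T cells) or Epcam (epithelial cells), fewer than 3 UMIs of C1qa, C1qb and C1qc together (macrophages) and none of Ngp and Camp. The rule found 576 members among 1020 kept barcodes of 3 whole-tumor libraries, out of 1054 in the files. The study describes more whole-tumor cells than these files hold, and the shares of barcodes below rest on the barcodes in the files. The cells were thus chosen by their measured UMIs of these genes, so the levels of these genes and the number of members are a description.

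Tumors of all 3 libraries grew from 4T1 cells, a mouse mammary carcinoma line that models triple negative breast cancer, in the fat pad of BALB/c mice that were 8 to 10 weeks old when injected and 12 weeks old per the labels. Tumors measured 70 to 140 mm3 before treatment. The control-labelled library was from mice given saline. The sensitive-labelled and resistant-labelled libraries were from mice given doxorubicin (DOX), an anthracycline, by tail vein at 5 mg/kg on 3 occasions spaced 3 days apart, whose tumors were sorted into these categories by growth under DOX. Titles and the DOX sensitivity label were the same in each library, but the source field named sensitive tumors for the resistant and the control library too (the latter with saline). Of kept barcodes, T cell barcodes were 83 of 488 under the control title (17.0%, 13.8 to 20.6), 5 of 269 under the sensitive title (1.86%, 0.606 to 4.28) and 17 of 263 under the resistant title (6.46%, 3.81 to 10.1). The most T cells were thus in the control-labelled library, which is not the category that the study describes as richest in them, although its cells were classed in another way. Which label is right was not settled here, so each library is called by its title, and every direction between libraries below, also between the DOX libraries, rests on the titles. Each category was 1 library, and how many tumors or mice it held is not given in the sources used here. A difference between libraries therefore has no replicate check, and values in brackets are exact 95% intervals (Clopper-Pearson for shares and ratios, Poisson for levels) that cover counting error only. In these libraries no barcode was shared between any pair, and 37 mitochondrial features were listed at 0 UMIs, so cell damage could not be read from them.

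Neutrophils are short-lived granulocytes that the bone marrow releases with most of their granule proteins already made. In tumors they secrete chemokines and can restrain T cells, and they respond to interferons by switching on antiviral and antigen presentation genes. Type I and type II interferons act through transcription factors downstream of their receptors, and type I interferon in particular through the interferon-stimulated response element (ISRE) of its target promoters. Heat shock genes answer to a different factor, HSF1, which binds inverted GAA repeats.

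Promoters of 4 genes whose levels differed between the libraries are given first, since genes of the groups described below are known to respond through such elements. The 250 bases before the transcription start are shown 5′ to 3′ on the gene's strand, from RefSeq on GRCm38.p6, with matches in capitals. The ISRE core was searched as GAAA, any 2 bases and GAAA again, on either strand, and the capitals of Isg15 and Irgm1 are runs of overlapping matches, whereas the Rsad2 match lies on the opposite strand. The heat shock element was searched as GAANNTTC, which reads alike on both strands.
Isg15, chr4:156200819-156201068, minus strand: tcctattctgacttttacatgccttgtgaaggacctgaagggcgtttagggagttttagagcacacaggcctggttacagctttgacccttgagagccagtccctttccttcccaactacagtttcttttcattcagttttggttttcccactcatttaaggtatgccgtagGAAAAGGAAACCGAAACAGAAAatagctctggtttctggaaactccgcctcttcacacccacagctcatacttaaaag
Irgm1, chr11:48871421-48871670, minus strand: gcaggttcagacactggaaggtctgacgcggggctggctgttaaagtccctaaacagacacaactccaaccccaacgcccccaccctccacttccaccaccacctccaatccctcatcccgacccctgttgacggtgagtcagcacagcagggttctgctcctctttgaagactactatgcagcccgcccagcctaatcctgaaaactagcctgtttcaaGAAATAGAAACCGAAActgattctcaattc
Rsad2, chr12:26456453-26456702, minus strand: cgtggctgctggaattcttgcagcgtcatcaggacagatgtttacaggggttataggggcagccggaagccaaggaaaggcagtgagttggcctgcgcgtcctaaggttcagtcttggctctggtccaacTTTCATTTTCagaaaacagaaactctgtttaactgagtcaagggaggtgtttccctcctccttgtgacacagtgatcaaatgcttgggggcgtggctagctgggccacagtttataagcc
Hspa1b, chr17:34959239-34959488, minus strand: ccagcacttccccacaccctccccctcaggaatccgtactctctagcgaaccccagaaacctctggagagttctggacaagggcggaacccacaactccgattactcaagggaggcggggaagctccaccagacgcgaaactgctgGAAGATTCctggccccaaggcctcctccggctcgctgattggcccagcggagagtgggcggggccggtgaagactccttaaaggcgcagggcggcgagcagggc
Over windows that ran from 250 bases before to 50 after each start, the ISRE core was found in 3.44% of all 32851 promoters and in 4.98% of the 1587 promoters of genes with enough UMIs to compare. It was found in 18 of 35 promoters of the interferon-stimulated genes listed for this work (51.4%), 30 of whose 38 genes had a promoter in the table, and the 3 interferon promoters shown were taken from those with a match. The heat shock element was found in 7.86% of the 32851 promoters. It was found in 4 of 11 promoters of the listed heat shock and unfolded protein genes, below called the heat shock list. These 4 were promoters of Hspa1a, Hspa1b and Hsph1. A match is a description of these letters and not of binding.

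Members made up 245 of 488 kept barcodes of the control-labelled library (50.2%, 45.7 to 54.7), 200 of 269 of the sensitive-labelled library (74.3%, 68.7 to 79.5) and 131 of 263 of the resistant-labelled library (49.8%, 43.6 to 56.0). The share was thus highest in the sensitive-labelled library, and the intervals of the other libraries overlapped. These are shares of barcodes, so fewer barcodes of cancer cells or macrophages and more of neutrophils cannot be told apart. Among all barcodes that met the neutrophil gate, the share without Ngp and Camp was 81.4% of 301 (76.5 to 85.6) in the control-labelled, 91.3% of 219 (86.8 to 94.7) in the sensitive-labelled and 97.0% of 135 (92.6 to 99.2) in the resistant-labelled library. Gated neutrophils with Ngp or Camp numbered 56, 19 and 4 in that order.

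**Figure D1:**
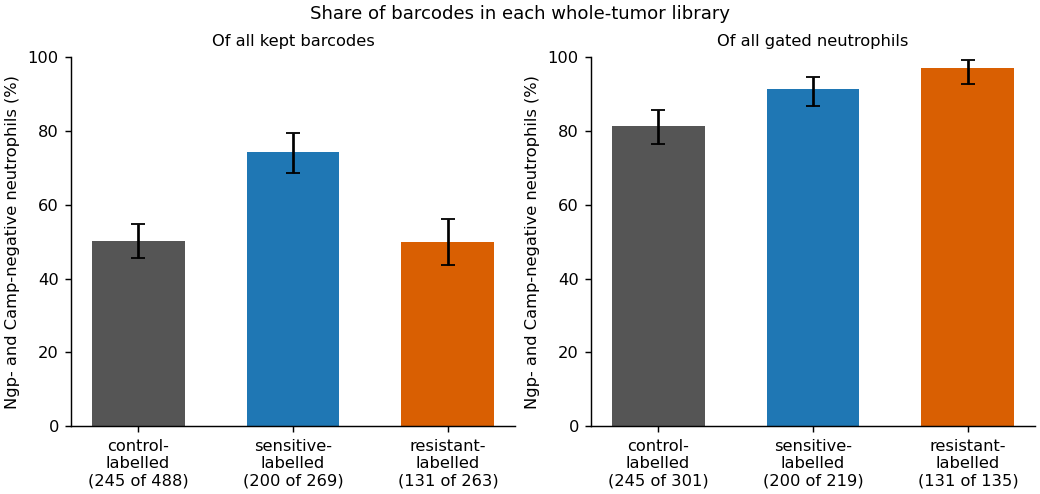
Percentage of kept barcodes (left) and of gated neutrophils (right) that were Ngp- and Camp-negative neutrophils in each whole-tumor library, with exact 95% Clopper-Pearson intervals and the numbers of barcodes under each bar. Of kept barcodes the sensitive-labelled library stands at 74.3% and the others at 50.2% and 49.8%, whereas of gated neutrophils the control-labelled library is lowest at 81.4%.

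At the borders of the rule, gated neutrophils with exactly 1 UMI of Ngp and Camp together numbered 26 in the control-labelled, 17 in the sensitive-labelled and 1 in the resistant-labelled library, and those with 10 or more numbered 17, 2 and 0. Just inside the gate, 37, 47 and 17 members carried exactly 2 of the 6 gate genes, and 18, 11 and 10 barcodes that met every other condition carried exactly 1. At least 3 gate genes would have left 42.6%, 56.9% and 43.3% of kept barcodes. The median member had 180 UMIs of S100a8 and S100a9 together in the control-labelled, 122 in the sensitive-labelled and 217 in the resistant-labelled library.

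Members had a median of 1449 UMIs and 533 genes in the control-labelled, 1511.5 UMIs and 542.5 genes in the sensitive-labelled and 2152 UMIs and 707 genes in the resistant-labelled library, and summed to 445249, 354172 and 331534 UMIs. Because depth differed, levels were taken as counts per 1000000 UMIs of all members of a library (CPM), and shares of cells were counted after each member was thinned to 500 UMIs, which left out 3 sensitive-labelled members. S100a8 and S100a9, the calprotectin subunits, held 12.6%, 10.4% and 11.3% of member UMIs. After these, the genes with most UMIs were Fth1 and Ftl1 (ferritin chains), Malat1, Wfdc17, Actb, Cxcl2 (a chemokine that draws neutrophils), Tmsb4x and Cebpb (a granulocyte transcription factor), and the 10 together held 31.9%, 29.7% and 29.4% of UMIs.

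Of the 5 neutrophil markers, 4 were genes of the rule, and their high level in members follows from the selection. Stfa2l1, a stefin protease inhibitor that the rule did not use, was at 1460 CPM in the control-labelled, 1864 CPM in the sensitive-labelled and 2368 CPM in the resistant-labelled library. It was seen in 43.7%, 48.2% and 62.6% of thinned members and in 1.20% of 83 thinned T cell barcodes of the control-labelled library. In the other libraries it was in 0 of 5 and 0 of 17, too few to give a background share. S100a8, which the rule used, was in 45.8%, 40.0% and 11.8% of these T cell barcodes. All markers of B cells, dendritic cells, endothelial cells and the eosinophil, basophil and mast cell list were at 0 UMIs in members of every library. Hemoglobin genes gave 2, 0 and 0 UMIs.

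Markers of some other cell types differed between libraries. The 9 macrophage or monocyte markers summed to 725 CPM, 884 CPM and 1590 CPM, with 7, 9 and 9 of the 9 detected, and were seen in 18.8%, 29.0% and 52.7% of members without thinning. Apoe alone, a lipid carrier, was at 157 CPM, 488 CPM and 1089 CPM. The 6 fibroblast markers gave 896, 3 and 11 UMIs, and 96.8% of the 464 Col3a1 UMIs of the control-labelled members lay in 1 barcode. The 6 epithelial markers gave 53, 15 and 23 UMIs and the 8 T cell markers 20, 4 and 7 UMIs. Of platelet markers, Pf4 gave 118 UMIs in the sensitive-labelled members, 65.3% of them in 1 barcode. The results below were also computed without members that carried more than 2 UMIs of such markers, which kept 228, 183 and 96 members.

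The question of how neutrophils of DOX-treated tumors differ from those of saline-treated tumors was addressed first. Interferon-stimulated genes were higher in the members of both DOX libraries than in those of the control-labelled library. Of 19 listed genes that could be compared (at least 50 UMIs in both libraries together), 13 were at least 2-fold higher in the sensitive-labelled members and 0 were 2-fold lower, with a median ratio of 3.30. Over all 1509 genes compared, 4.64% were at least 2-fold higher and 2.52% at least 2-fold lower, with a median ratio of 1.04. In the resistant-labelled members 13 of 20 listed genes were at least 2-fold higher than in control-labelled members and 0 were lower, with a median ratio of 2.91, beside 5.47% higher and 2.64% lower of 1480 genes and a median of 1.03. These comparisons share the control-labelled library.

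Isg15 (chr4:156199424-156200818, minus strand, GRCm38), a ubiquitin-like protein that is attached to others upon interferon, had 274 UMIs or 615 CPM (545 to 693) in the control-labelled, 751 UMIs or 2120 CPM (1971 to 2278) in the sensitive-labelled and 505 UMIs or 1523 CPM (1393 to 1662) in the resistant-labelled members. The level was 3.45 times (3.00 to 3.97) that of the control-labelled library in the sensitive-labelled one and 2.48 times (2.13 to 2.88) in the resistant-labelled one. Both DOX libraries thus lay above the control-labelled one, beyond counting error. After thinning, Isg15 was seen in 18.4%, 44.2% and 36.6% of members, and without thinning in 39.6%, 68.5% and 67.2%. T cell barcodes, which can also make it and had median depths of 1483, 3628 and 3740 UMIs, held it in 13.3%, 0% and 11.8% after thinning.

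Rsad2 (chr12:26442746-26456452, minus strand), the antiviral enzyme viperin, had 20, 135 and 121 UMIs in control-, sensitive- and resistant-labelled members, or 44.9 CPM (27.4 to 69.4), 381 CPM (320 to 451) and 365 CPM (303 to 436). It was 8.49 times (5.28 to 14.3) and 8.13 times (5.04 to 13.8) the control-labelled level, and 55.0% of its control-labelled UMIs lay in 1 barcode. Among members with at least 500 genes the ratios were 16.7 and 15.4. The immunity-related GTPases are a family that defends cells against parasites in vacuoles. Of them, Irgm1 was at 51.7 CPM, 254 CPM and 265 CPM, Ifi47 at 38.2 CPM, 181 CPM and 253 CPM, and Igtp at 38.2 CPM, 178 CPM and 145 CPM in the same order. All 3 were thus at least 3.79 times the control-labelled level in each DOX library, although after thinning the resistant-labelled ratio was 2.81 for Irgm1 and 15.6 for Ifi47.

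Other listed genes were higher in both DOX libraries as well. Irf7, the amplifier of type I interferon, was at 58.4 CPM, 209 CPM and 290 CPM. Gbp2, a guanylate-binding protein, was at 89.8 CPM, 325 CPM and 326 CPM, and Zbp1, a sensor of Z-form nucleic acid, at 83.1 CPM, 353 CPM and 262 CPM. Socs1, a feedback inhibitor of cytokine receptors that was not on the list, had 18, 76 and 53 UMIs, 5.31 times (3.14 to 9.43) and 3.95 times (2.28 to 7.17) the control-labelled level.

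Not all listed genes followed. Ifitm1, Ifitm2 and Ifitm3, membrane proteins that block virus entry, gave most UMIs of the list and differed little, at 8555, 7917 and 9921 CPM for Ifitm1, so the sum over the whole list was 15602 CPM, 19705 CPM and 21265 CPM. Without these 3 genes, a split made after their values were seen, the sum was 2466 CPM (2322 to 2616), 7474 CPM (7192 to 7764) and 6425 CPM (6155 to 6703). The same sum in kept barcodes that were neither gated neutrophils nor T cell barcodes was 1255 CPM, 3689 CPM and 3436 CPM, higher in the DOX libraries too, and in T cell barcodes 3458 CPM, 4712 CPM and 2895 CPM. Slfn1 and Slfn4 were within 2-fold of the control-labelled level in both DOX libraries.

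**Figure D2:**
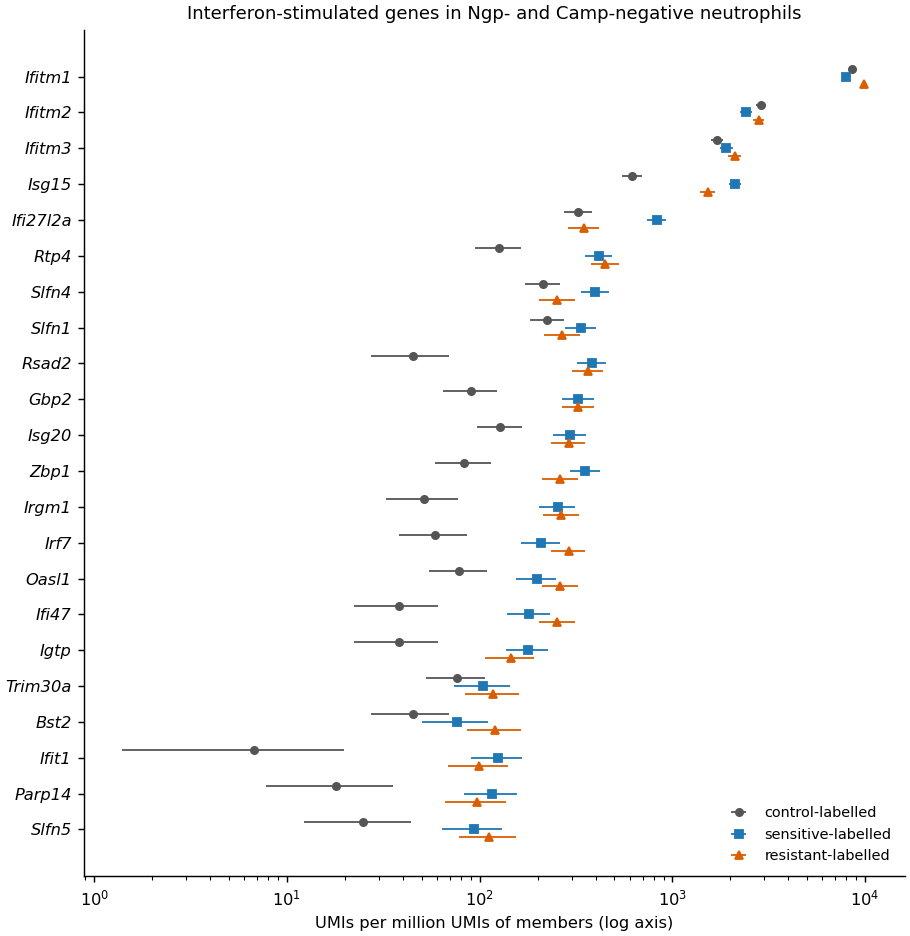
Level of listed interferon-stimulated genes with at least 50 UMIs in a pair of libraries, as CPM of members on a log axis, with exact 95% Poisson intervals, for the control-, sensitive- and resistant-labelled library. Ifitm1, Ifitm2 and Ifitm3 lie close together in all libraries, whereas Rsad2, Irgm1, Ifi47 and Igtp lie apart from the control-labelled level in both DOX libraries.

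The difference was spread over many cells. Thinned members with at least 3 UMIs of the list without Ifitm genes were 14.7% (10.5 to 19.8) of control-labelled, 49.2% (42.1 to 56.4) of sensitive-labelled and 40.5% (32.0 to 49.4) of resistant-labelled cells, and members with none were 46.5%, 18.8% and 23.7%. The top 5% of members held 30.5%, 22.5% and 25.1% of these UMIs. The count of listed genes 2-fold higher stayed at 12 of 18 in the sensitive-labelled and 11 of 18 in the resistant-labelled library when members with markers of other cell types were left out, with medians of 3.22 and 2.98.

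Between the DOX libraries the interferon list showed no common direction. Of 23 genes compared, 1 was at least 2-fold higher in the sensitive-labelled members (Ifi27l2a) and 0 were lower, beside 2.95% higher and 2.59% lower of 1391 genes, and the median ratio was 0.997. Ifi27l2a was at 326 CPM in the control-labelled, 827 CPM in the sensitive-labelled and 347 CPM in the resistant-labelled members, so that the sensitive-labelled level was 2.38 times (1.92 to 2.99) the resistant-labelled one. It was seen in 8.16%, 17.3% and 8.40% of thinned members, and in 56.6%, 20% and 35.3% of thinned T cell barcodes.

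Antigen presentation genes were also higher in the DOX libraries, in every one of the 7 genes compared for the sensitive-labelled (median ratio 1.82, 3 at least 2-fold, beside 56.7% of all genes above 1 and 4.64% at least 2-fold higher) and of the 8 for the resistant-labelled library (median 2.73, 5 at least 2-fold, beside 54.1% above 1 and 5.47% at least 2-fold higher). Without members that carried markers of other types, 4 genes remained to compare in each, all higher, with 1 at least 2-fold. The class I part was moderate and broad. The class I heavy chain H2-D1 was at 2129 CPM (1996 to 2269), 3829 CPM (3628 to 4038) and 3698 CPM (3494 to 3911), B2m, the light chain of all class I molecules, at 2217 CPM, 3992 CPM and 3010 CPM, and H2-K1 at 517 CPM, 940 CPM and 769 CPM. Without members that carried markers of other types, H2-D1, B2m and H2-K1 were 1.74, 1.86 and 1.82 times the control-labelled level in the sensitive-labelled library. In the resistant-labelled one they were 1.52, 1.36 and 1.20 times, below the list median of 2.73, which includes class II genes. Thinned members with at least 3 UMIs of the 6 class I and peptide transport genes were 42.4% (36.2 to 48.9), 72.1% (65.3 to 78.2) and 61.8% (52.9 to 70.2).

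Class II UMIs were found in 13.9%, 16.0% and 15.3% of members without thinning, and in the DOX libraries most of those of Cd74 came from 1 barcode. Cd74, the class II chaperone, had 19, 90 and 236 UMIs, of which the 1 barcode with most held 15.8%, 65.6% and 53.8%, and H2-Aa had 3, 9 and 76 UMIs. At least 92.4% of thinned members of each library held no class II UMI. Without members of more than 3 times the median depth (11, 5 and 3 cells), Cd74 was 1.11 times the control-labelled level in the resistant-labelled library, against 16.7 times with them, and without members that had markers of other types it was 0.937 times. Cxcl10, a T cell chemokine induced by interferon, had 5, 35 and 78 UMIs and was seen in 1.63%, 5.00% and 7.63% of members without thinning. Its ratio of resistant-labelled to control-labelled level, 20.95 (8.60 to 66.3), stayed between 19.6 and 37.4 under all alternatives.

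The list of heat shock and unfolded protein genes separated the DOX libraries from each other. Besides heat shock genes, those compared included Hspa5, Ddit3, Atf4 and Sqstm1, so the list is not one of HSF1 targets alone. All 9 listed genes compared were higher in the sensitive-labelled than in the resistant-labelled members, 4 of them at least 2-fold, with a median ratio of 1.78, beside 49.2% of all genes above 1 and 2.95% at least 2-fold higher. Against control-labelled members, 8 of 9 were higher in the sensitive-labelled library with 0 past 2-fold (median 1.49), and 8 of 9 were lower in the resistant-labelled library with 2 past 2-fold (median 0.748). Of all genes, 56.7% were higher in the sensitive-labelled and 45.9% lower in the resistant-labelled library than in the control-labelled one, and 4.64% and 2.64% passed 2-fold in those directions. Without members that carried markers of other types, 9 of 9 were higher in the sensitive-labelled library with 2 past 2-fold (Hspa8, 3.11 times against 1.49 with them, and Hsp90aa1, 2.04 times). In the same setting 6 of 9 were lower in the resistant-labelled library, 1 of them past 2-fold, and the median was 0.929. The list summed to 2628 CPM (2479 to 2783) in control-labelled, 3724 CPM (3526 to 3931) in sensitive-labelled and 2012 CPM (1862 to 2171) in resistant-labelled members. Kept barcodes that were neither neutrophils nor T cell barcodes had 4294 CPM, 3726 CPM and 3857 CPM. Gated neutrophils with Ngp or Camp had 2209 CPM (2034 to 2396), 1717 CPM (1396 to 2091) and 1210 CPM (705 to 1937). In those cells the sensitive-labelled library was thus not above the control-labelled one.

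Hspa1b (chr17:34956436-34959238, minus strand), a stress-induced Hsp70 whose promoter is shown above, had 62, 86 and 10 UMIs, or 139 CPM (107 to 179), 243 CPM (194 to 300) and 30.2 CPM (14.5 to 55.5). The sensitive-labelled level was 8.05 times (4.17 to 17.4) the resistant-labelled one, and the resistant-labelled library was the low one, at 0.217 times (0.099 to 0.426) the control-labelled level. Its near-identical neighbour Hspa1a had 147, 105 and 34 UMIs, and 76.5% of the resistant-labelled ones lay in 1 barcode. Reads of these copies can be split between them, so their separate counts are uncertain. Hsp90aa1, the inducible Hsp90, was at 409 CPM (352 to 473), 748 CPM (661 to 844) and 287 CPM (232 to 350). Sqstm1, an autophagy receptor, was at 157 CPM, 246 CPM and 118 CPM. Thinned members with at least 3 UMIs of the list were 15.9% (11.6 to 21.1), 26.9% (20.8 to 33.7) and 9.92% (5.39 to 16.4).

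The immediate early and NF-kB genes, which also answer to handling of cells, moved with the heat shock list between the DOX libraries. Of 18 compared, 16 were higher in the sensitive-labelled than in the resistant-labelled members (median 1.28), and 1 at least 2-fold (Fosb), beside 49.2% and 2.95% of all genes. Against control-labelled members, 13 of 20 were higher in the sensitive-labelled (median 1.10) and 6 of 20 in the resistant-labelled library (median 0.930), beside 56.7% and 54.1% of all genes. At least 2-fold lower were 2 in each (Klf4 in both, with Nr4a1 and Fosb), beside 2.52% and 2.64%. In the sensitive-labelled library this count was 0 without members over 3 times the median depth, without members carrying markers of other types, or with a minimum of 100 UMIs. The part of tumor dissociation in these lists was not tested.

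Genes of granule proteins were lowest in the sensitive-labelled members, except Chil3. All 7 compared were lower in the sensitive-labelled than in the control-labelled members, with a median of 0.618 and 1 past 2-fold, and all 8 compared were lower than in the resistant-labelled members, with a median of 0.608 and 3 past 2-fold (Lyz2, Chil3 and Mmp8). Of all genes, 43.3% and 50.8% were lower in these comparisons, and 2.52% and 2.59% at least 2-fold lower. Lcn2, which binds bacterial siderophores, was at 1074 CPM (979 to 1174), 734 CPM (648 to 829) and 1270 CPM (1151 to 1397). Hp, haptoglobin, was at 1002 CPM, 686 CPM and 1026 CPM, and Pglyrp1, which binds bacterial peptidoglycan, at 1029 CPM, 635 CPM and 811 CPM. Lyz2, lysozyme, was at 768 CPM, 260 CPM and 2356 CPM, but 1 barcode held 59.9% of its resistant-labelled UMIs, and 98.0% of the Chil3 UMIs of that library lay in 1 barcode. In the resistant-labelled library the Lyz2 level was 3.07 times that of control-labelled members, and 1.24 times without members that carried markers of other types.

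**Figure D3:**
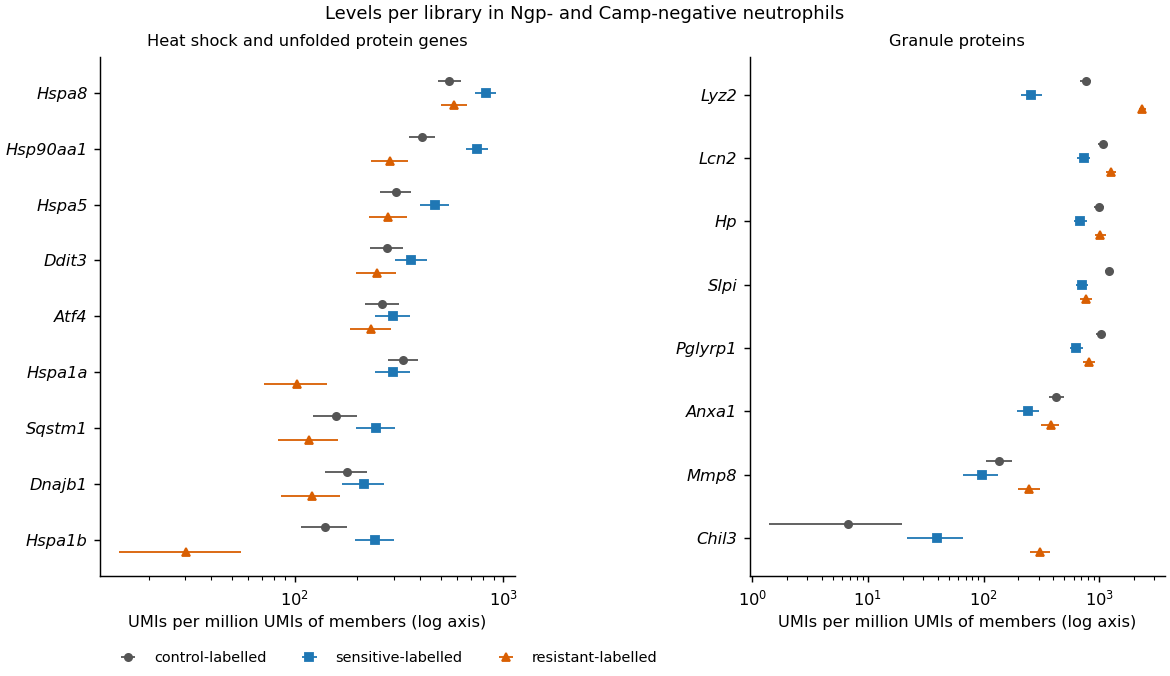
Level of each gene of the heat shock and unfolded protein list (left) and of the granule list (right) with at least 50 UMIs in a pair of libraries. Values are CPM of members on log axes with exact 95% Poisson intervals. The resistant-labelled library is low for Hspa1b and Hspa1a, and the sensitive-labelled library is lowest for each granule gene except Chil3.

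The list of stefins and S100 proteins had no common direction in the sensitive-labelled against the control-labelled members, with 6 of 11 genes higher, beside 56.7% of all genes, and a median ratio of 1.04. In the resistant-labelled library 8 of 11 were higher than in control-labelled members (median 1.34), beside 54.1% of all genes, and the median of the sensitive- over the resistant-labelled library was 0.787. S100a6, a calcium-binding protein, was at 6181 CPM (5952 to 6416), 3015 CPM (2837 to 3202) and 4826 CPM (4592 to 5068), and was seen in 77.6%, 56.3% and 71.0% of thinned members. Among genes taken for the size of their difference, Prok2, a secreted peptide that draws myeloid cells, had 415, 113 and 181 UMIs, 0.342 times (0.276 to 0.422) the control-labelled level in the sensitive-labelled library. Ifitm6 had 224, 56 and 109 UMIs. Saa3, an acute-phase protein, was at 2908 CPM, 1672 CPM and 3574 CPM. The stefins, cystatin-like inhibitors of cathepsins whose copies are close enough to share reads, were highest in the resistant-labelled library for Stfa2 (1035, 1022 and 1855 CPM) and Stfa3 (364, 494 and 778 CPM).

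Of the genes listed for neutrophils of tumors, 8 of 9 were higher in the sensitive-labelled than in the control-labelled members (median 1.49, 0 at least 2-fold), beside 56.7% of all genes higher and 4.64% at least 2-fold. In the resistant-labelled library 6 of 9 were higher (median 1.21, 1 at least 2-fold), near the 54.1% and 5.47% of all genes. Cstb, a cathepsin inhibitor, was at 1945 CPM, 3623 CPM and 2169 CPM, and Ctsb, a cathepsin, at 599.7 CPM, 997 CPM and 727 CPM. Tnfaip2 had 146, 220 and 244 UMIs and was the gene past 2-fold. Hdc, which makes histamine, was not higher, at 1101 CPM, 918 CPM and 1095 CPM.

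The list of suppressor genes of tumor myeloid cells was mixed. Of 10 listed genes compared, the same number, 3, were at least 2-fold higher than in control-labelled members in each DOX library, beside 4.64% and 5.47% of all genes, and the medians were 1.04 and 1.11. Without members that carried markers of other types, 2 and 1 of 9 were at least 2-fold higher, with medians of 0.981 and 0.988. Cd274, the checkpoint ligand PD-L1, had 62, 144 and 99 UMIs, or 139 CPM (107 to 179), 407 CPM (343 to 479) and 299 CPM (243 to 364), and was seen in 7.76%, 19.3% and 18.3% of thinned members. Clec4n was at 168 CPM, 350 CPM and 398 CPM, with 42.4% of its resistant-labelled UMIs in 1 barcode. Wfdc17, the gene of this list with most UMIs, was within 2-fold throughout, at 27311, 22633 and 27822 CPM.

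Chemokines and cytokines were mostly within 2-fold. Of the 12 compared, 2 were at least 2-fold higher in the sensitive-labelled than in the control-labelled library (Ccl9 and Tnf), and of 13 compared, 3 were in the resistant-labelled library (Cxcl10, Ccl9 and Tnf), beside 4.64% and 5.47% of all genes. Higher by any amount were 12 of 12 and 9 of 13, beside 56.7% and 54.1% of all genes, and the former became 9 of 12 when the median gene ratio was scaled to 1 and 8 of 12 with Retnlg left out of the gate. Tnf had 22, 65 and 36 UMIs. Cxcl2 was at 14657, 15072 and 17525 CPM and Il1b at 6053, 6370 and 8271 CPM. Of the pattern recognition and Fc receptors, 1 of 12 compared and 1 of 13 were at least 2-fold higher, beside 4.64% and 5.47% of all genes. The medians were 1.31 and 1.31. The gene past 2-fold was Fcgr4, which binds IgG, with 71, 124 and 168 UMIs, or 2.20 times (1.63 to 2.98) and 3.18 times (2.39 to 4.26) the control-labelled level.

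For several lists few genes passed 2-fold against the control-labelled library, where 4.64% of all genes were at least 2-fold higher and 2.52% lower in the sensitive-labelled and 5.47% and 2.64% in the resistant-labelled library. For migration and adhesion receptors it was 0 of 16 in either direction in either DOX library, which in so short a list is near those shares. Of the glycolysis and hypoxia genes 0 of 25 were at least 2-fold higher and 1 (Ndrg1) at least 2-fold lower in the sensitive-labelled library, and 1 of 24 was higher (Pfkl) and 1 lower (Ndrg1) in the resistant-labelled one. The lower count was 0 in both when cells were averaged, without deep members, without members carrying markers of other types, with Retnlg left out of the gate or with a minimum of 100 UMIs, and also after thinning in the sensitive-labelled library. The p53 targets, which DNA damage can induce, had 5 of 6 and 5 of 7 genes higher (medians 1.39 and 1.24), beside 56.7% and 54.1% of all genes, and 0 and 1 (Fas) at least 2-fold, beside 4.64% and 5.47%. No gene of the list of DOX targets and transporters reached 50 UMIs, and of the IL-17 pathway only 2 did, with 0 past 2-fold in any comparison. Ribosomal protein genes held 6.94%, 6.50% and 5.99% of member UMIs.

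**Figure D4:**
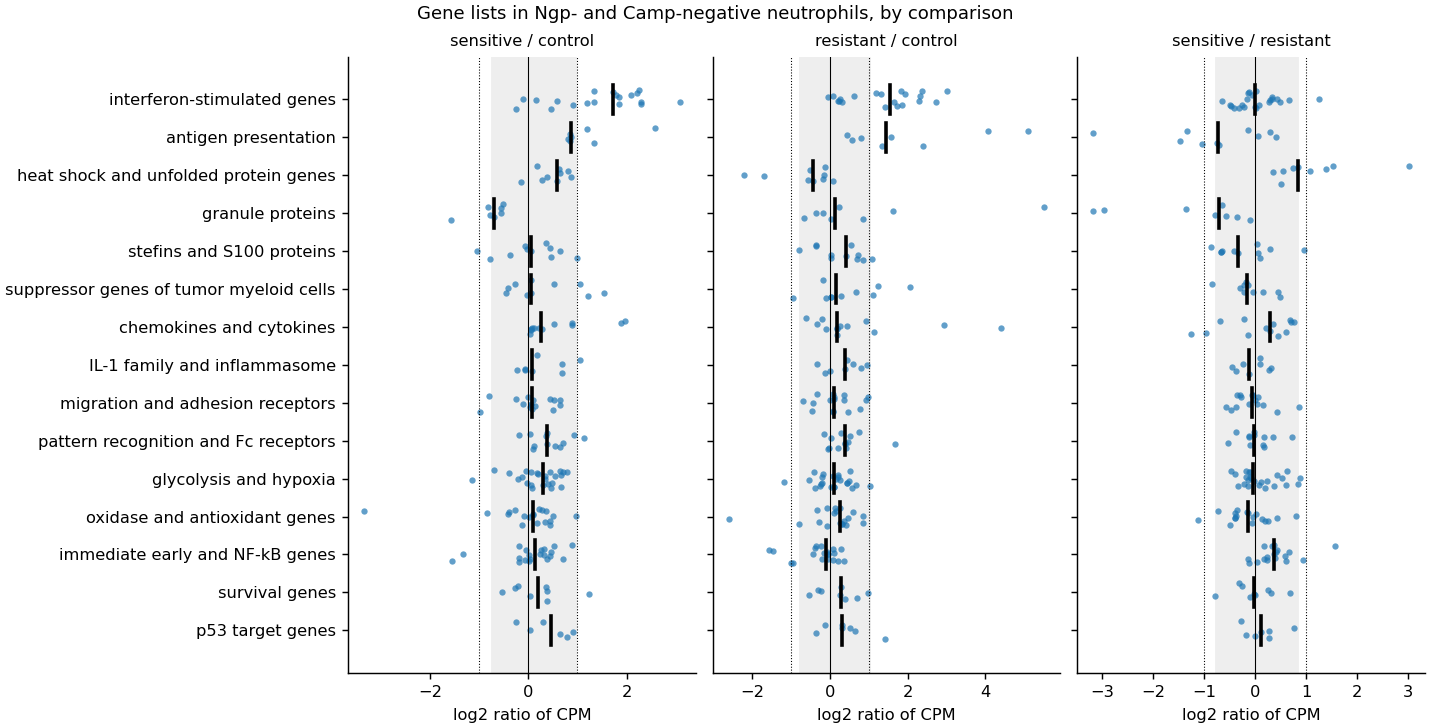
Log2 ratio of CPM for each gene of 15 lists (points) with the list's median (black bar), for the 3 comparisons between libraries. The grey band spans the 5th to 95th percentile of all genes compared, -0.74 to 0.97, -0.77 to 1.04 and -0.77 to 0.83, and dotted lines mark 2-fold. The interferon list lies to the right in both comparisons with the control-labelled library and around 0 between the DOX libraries, where the heat shock list lies to the right and the granule list to the left.

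Among the other genes whose intervals lay farthest from a ratio of 1, some rested on single barcodes. Mt2, a metallothionein, had 496, 39 and 61 UMIs, with 76.0% of the control-labelled ones in 1 barcode, and Col3a1 had 464, 1 and 8. AW112010 was 12.3 times the control-labelled level in the resistant-labelled library with 71.3% of its UMIs in 1 barcode. Others did not. Gbp2b, a guanylate-binding protein, had 30, 121 and 176 UMIs, 5.07 times (3.38 to 7.84) and 7.88 times (5.33 to 12.0) the control-labelled level, with no barcode above 13.6% of its UMIs in any library. Chka, choline kinase, had 28, 58 and 13 UMIs, and Fosb, an immediate early factor, 95, 76 and 24. Gm6977, annotated as a processed pseudogene, had 78, 190 and 45 UMIs, and its reads may come from a parent gene.

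Ranked by the lowest of the libraries' ratios of variance to mean UMIs after thinning, members varied most for S100a8 (21.1, 20.5 and 18.9), Wfdc17, Actb and Fth1. The chemokines Ccl4 (8.50, 11.8 and 14.6) and Cxcl2 (8.22, 12.3 and 18.9) were also among the 10 highest, in an order that differed between libraries. Isg15 had 2.36, 2.59 and 2.78. Counting alone would give a value near 1. The 1 barcode with most UMIs held 8.55%, 9.59% and 19.2% of the Ccl4 UMIs and 4.41%, 3.05% and 7.95% of the Cxcl2 UMIs, and such barcodes weigh on this ratio.

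**Figure D5:**
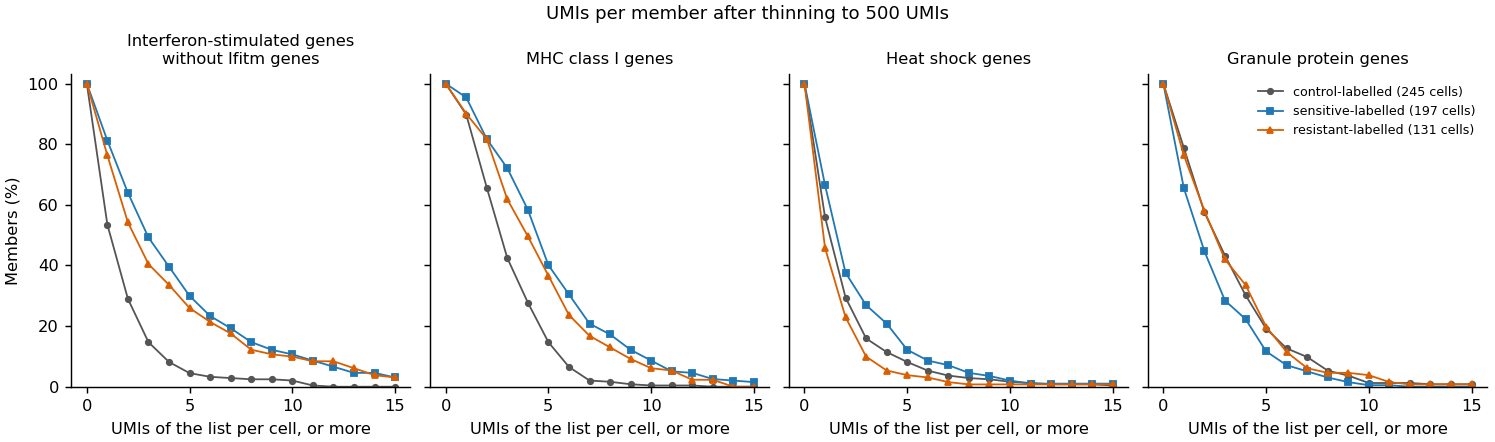
Percentage of members with at least a given number of UMIs of each list after thinning to 500 UMIs. The lists are interferon-stimulated genes without Ifitm genes, MHC class I genes, heat shock and unfolded protein genes, and granule genes. Shown are 245 control-, 197 sensitive- and 131 resistant-labelled cells. At 3 UMIs or more the interferon curve reads 14.7%, 49.2% and 40.5%, and the heat shock curve 15.9%, 26.9% and 9.92%.

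The rule split the members from gated neutrophils with Ngp or Camp by granule genes, so values set against those cells are a description. At least 2-fold higher in members were 20.6% of 1306 genes in the control-labelled, 13.5% of 928 in the sensitive-labelled and 22.9% of 813 in the resistant-labelled library, and at least 2-fold lower were 7.5%, 3.77% and 4.43%. The Ccl4 level in members was 3.72 times (3.20 to 4.35), 4.59 times (3.31 to 6.55) and 8.94 times (3.48 to 32.9) that of the others, and that of Klf2, a transcription factor of quiescent leukocytes, 3.68, 2.66 and 4.24 times. The granule list summed to 5875 CPM, 3606 CPM and 7345 CPM (7056 to 7642) in members. In the others it summed to 15067 CPM, 12490 CPM and 8186 CPM (6758 to 9826). In the resistant-labelled library, with 4 cells with Ngp or Camp, the intervals overlapped. Most Lyz2 and Chil3 UMIs of the resistant-labelled members lay in single barcodes, as given above, which raised the sum of those members. Ifitm6 was 0.088, 0.0515 and 0.1004 times the level of the neutrophils with Ngp or Camp, and Lcn2 0.197, 0.155 and 0.415 times. Ly6g, a surface marker of mouse neutrophils, was at 60.6, 45.2 and 66.4 CPM in members and at 564, 833 and 214 CPM in the others, the last from 3 UMIs. The group with Ngp or Camp was deeper in each library, at a median of 3426.5, 1937 and 2802 UMIs, and after all barcodes were thinned to 500 UMIs the share of gated neutrophils without Ngp and Camp was 93.1%, 97.3% and 98.9%. The interferon list without Ifitm genes was at 1282 CPM, 3591 CPM and 6833 CPM in the neutrophils with Ngp or Camp, so in these 56, 19 and 4 cells the DOX libraries were also above the control-labelled one.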

How the data were processed

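Whole tumors were dissociated and run by droplet sequencing, 1 library per category. The authors aligned reads to mm10 with Cell Ranger (version 3.0.1 per the file headers) and deposited UMI counts per gene and barcode for 54987 features, neither normalized nor pooled. Libraries summed to 1654559, 537293 and 1731940 UMIs (control-, sensitive- and resistant-labelled). Gene names and positions were matched by gene ID to GENCODE vM21 (GRCm38), since the files spell Retnlg differently.

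Members were selected by the rule given, no doublet caller was run, and their counts were summed per library as CPM. With 1 library per group no test was made. CPM were given exact Poisson and ratios exact conditional binomial 95% intervals, checked on simulated data, and a count of 0 in a denominator was read as 3 counts, which gives a bound. Genes with at least 50 UMIs in a pair of libraries were compared at a limit of 2-fold. Thinning used seed 1. Named genes were taken from the listed genes, the 10 highest and 10 lowest of each comparison by the interval bound nearest 1 (in at least 5% of members), the 10 with most UMIs and the 10 most variable. Members and the 21 gene lists were chosen with earlier results of these data known, and the MHC class I and II split and the Ifitm split after seeing values. Alternatives covered the gate, depth, scaling, thinning and members with markers of other types. The T cell libraries of the series were not used here, and single values of some listed genes are not reported here. Tools were numpy 2.4.6, pandas 2.3.3, scipy 1.17.1 and matplotlib 3.10.9.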

Additional observations from a re-analysis of the deposited data

How the results depend on the processing

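With 1 library per category, no difference has a replicate check, and animal, dissociation and treatment cannot be told apart. No paired analysis was possible because each category had 1 library. The share of kept barcodes that were members was highest in the sensitive-labelled library under all gate alternatives. At least 3 gate genes gave 42.6%, 56.9% and 43.3% (control-, sensitive- and resistant-labelled), thinning all barcodes to 500 UMIs 40.4%, 59.3% and 36.4%, and at least 500 genes 44.1% in the control-labelled library. Allowing 1 UMI of Ngp and Camp gave 55.5% and 80.7% in the control- and sensitive-labelled libraries, and leaving neutrophils with Ngp or Camp out of the denominator 56.7% and 80.0%. Of gated neutrophils, the control-labelled share was 75.0% with at least 500 genes, 90.0% with 1 UMI allowed and 93.1% after thinning, and the sensitive-labelled share 99.1% and 97.3% with 1 UMI allowed and after thinning. With 1 UMI allowed the resistant-labelled library gained only 1 member, and the sensitive-labelled share was then the higher of the DOX libraries.

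Counts of genes past 2-fold depended on depth and on few cells. For the sensitive- over control-labelled library, thinning members gave 131 higher and 111 lower (70 and 38 as reported), a minimum of 20 UMIs 206 and 157, and of 100 UMIs 37 and 14. Lower genes were 17 without members over 3 times the median depth, 24 without members carrying other markers, and 23 with Retnlg left out of the gate. For the resistant- over control-labelled library, thinning gave 132 and 121 (81 and 39 as reported), 20 UMIs 237 and 154, and 100 UMIs 40 and 17. Members without other markers gave 49 higher and 16 lower, members under 3 times the median depth 18 lower, and the gate without Retnlg 18 lower. For the sensitive- over resistant-labelled library, thinning gave 105 and 111 (41 and 36 as reported), 20 UMIs 149 and 139, and 100 UMIs 18 and 20. Members without other markers gave 23 higher and 14 lower, and members under 3 times the median depth 23 lower.

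Of 89 ratios that were at least 2-fold as reported, 12 crossed 1 under at least 1 alternative, and they belonged to Cd74, Fn1, Mt2, Chil3 and the class II genes H2-Aa, H2-Ab1 and H2-Eb1. Of 89 ratios within 2-fold, 19 crossed 1. Without members carrying other markers, the sensitive- over control-labelled ratio of Cd74 was 0.690, resistant- over control-labelled ratios were 0.937 for Cd74, 1.04 for Mt2, 0.580 for H2-Aa, 2.61 for Fn1 and 0.0 for Chil3 (0 resistant-labelled UMIs left), and sensitive- over resistant-labelled ratios 3.68 for H2-Aa, 1.47 for H2-Ab1, 4.05 for H2-Eb1 and, as a lower bound with those 0 UMIs read as 3, at least 1.23 for Chil3. Without members over 3 times the median depth, Fn1 was 1.06 (sensitive over control) and 2.39 (resistant over control), and sensitive over resistant Cd74 was 1.81, H2-Aa 2.18, H2-Ab1 1.17, H2-Eb1 5.14 and Chil3 2.34. With Retnlg left out, Fn1 was 1.44 and 1.65 over control. Averaging over cells gave Fn1 1.01 (resistant over control) and H2-Eb1 1.38 (sensitive over resistant), and thinning gave Fn1 2.81 (resistant over control), and H2-Eb1 2.99 and Chil3 1.99 (sensitive over resistant). Chosen after seeing the data were the gate without Retnlg and the members without other markers. Fn1 is itself among those markers, so its value without members carrying them follows in part from that filter. Of the other gene ratios under alternatives, 1194 stayed within their counting interval and 205 moved beyond it. The interferon list kept 0 genes 2-fold lower against the control-labelled library in every setting, with medians from 2.54 to 3.44 (sensitive) and 2.52 to 3.33 (resistant), and the heat shock list kept all genes higher in the sensitive- than in the resistant-labelled library in every setting, with medians from 1.58 to 1.99.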
